A study of Mus musculus with 35 samples.

Results

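The genes Ralgds, Mical1, Mfsd12, Myo5a, Dgkz, Slamf9, Hcar2, Grina and Uvssa, which seldom feature in accounts of microglial disease states, were followed across a mouse model of TDP-43 disease. They are 9 of the 45706 genes in the deposited tables, and 9 of 9 were among the 13501 genes that passed the filter on low counts. They were chosen by their read counts, which were clearly higher in late disease than in control or early disease, with no numeric threshold, so the differences that involve late disease are given below as values with no test. After recovery 6 of the 9 were higher than in control by edgeR (2.87% of all genes tested were). Uvssa had a mean below that of control. The same controls had served to pick the genes, which by itself favours higher values in other groups. Without Recovery 3, 7 and 9, libraries high in neutrophil markers, 2 of the 9 were called. All recovery libraries also share a title code that no other library has.

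The genes share no pathway. Ralgds carries the signal from active Ras to Ral GTPases, which steer vesicle delivery through the exocyst, and Dgkz turns the messenger diacylglycerol into phosphatidic acid. Mical1 takes actin filaments apart by oxidising them, and Myo5a is a motor that walks along actin with vesicles and organelles as cargo. Mfsd12 is a transporter of lysosomes and related organelles that is needed for cysteine import, and Grina is a membrane protein of the TMBIM family, found in the Golgi and endoplasmic reticulum and linked to calcium handling and cell survival. Slamf9 belongs to the SLAM family of immune surface receptors, and Hcar2 is the receptor for the ketone body beta-hydroxybutyrate and for niacin, known from macrophages, microglia and neutrophils. Uvssa works in the nucleus, where it helps restart RNA polymerase that has stalled at DNA damage.

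The mice were rNLS8, in which the promoter of the neuronal gene NEFH drives the tetracycline transactivator and the transactivator in turn drives human TDP-43 lacking its nuclear localisation signal. The transgene is therefore made in neurons and not in microglia, and doxycycline in the diet keeps it silent. All mice, of a mixed C57BL/6J X C3HeJ F1 background and both sexes, stayed on doxycycline until 8 to 12 weeks of age. Early disease was 7 rNLS8 mice 2 weeks after doxycycline removal, late disease 7 rNLS8 mice 6 weeks after it, and recovery 7 rNLS8 mice with 6 weeks off and 1 week back on doxycycline. The 14 controls comprised 6 rNLS8 mice left on doxycycline for the 6 weeks, 4 wild-type (WT) littermates 2 weeks off doxycycline, 1 WT 6 weeks off and 3 WT with 6 weeks off and 1 week on. Cells were sorted from the whole spinal cord on CD11b and CD45 after a Percoll gradient, and each library is bulk RNA of one sorted sample, numbered as in the labels. In bulk samples fewer cells of a type and less RNA per cell cannot be told apart. The labels list the libraries as separate samples of a group, and p-values measure the spread between those samples.

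The libraries held between 13.9 M and 20.4 M expected counts (M, 1e6). Library titles carry a 4-digit code that the deposited design table lists as a date. The 7 recovery libraries are the only ones with the code 0803, so recovery and that code cannot be told apart. The code 0810 is held by 9 controls only (all 6 rNLS8 controls and 3 WT), and the share of TPM that lies outside the deposited table was 13.9% to 30.75% in those 9 against 2.32% to 11.44% in the other 26 libraries. Late and early libraries share the codes 1019, 1102 and 1130 with each other, and 5 WT controls carry 1019 or 1102. In late disease the 3 females all carry 1102 and the 4 males carry the other codes, so sex and code cannot be told apart within that group.

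Microglial identity genes dominated every library: 8 markers, among them P2ry12 and Tmem119, summed to a median of 65800 CPM (counts per 1e6 counts of the library) in controls, 55200 in late disease and 62100 in recovery. The 7 lymphocyte markers, of which Cd3e and Ncr1 were at 0 in every library, summed to 0 to 1.33 CPM in controls, 0.145 to 0.553 in early disease, 0.225 to 1.14 in late disease and 0.295 to 6.51 in recovery, with the highest sum in Recovery 9. The 8 markers of border macrophages, the resident macrophages at the borders of the brain, share F13a1 with the monocyte markers and summed to 1.66 to 12.8 CPM in controls, 4.76 to 21 in early disease, 3.14 to 38.3 in late disease and 8.12 to 59.2 in recovery. Neutrophil markers differed. The 10 listed genes, one of which (Csf3r) microglia also express, summed to 455 to 853 CPM in controls, 546 to 782 in early disease, 684 to 1060 in late disease and 791 to 7630 in recovery. Of these 10 genes, 0 were at 0 in every library of a group. The 8 monocyte markers summed to 5.62 to 26.3 CPM in controls, 11.2 to 37.4 in early disease, 32 to 158 in late disease and 67.1 to 581 in recovery. The 6 astrocyte markers varied widely within groups. They summed to 213 to 1820 CPM in controls and 164 to 1530 in early disease. In late disease they summed to 179 to 2730 CPM and in recovery to 1030 to 2720. Their part in the values of the 9 genes was not tested.

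The region upstream of the start site is shown for 4 of the genes, because they form the pairs that moved most closely together across libraries (Mfsd12 with Dgkz, and Ralgds with Slamf9). RefSeq start sites on GRCm38.p6 were given for 7 of the 9 genes, with 9 promoters in all, and the 250 bases before each start were searched on both strands for 5 motifs. The motifs were an E-box CACGTG, an AP-1 site TGANTCA, a PU.1 site GAGGAAG, a C/EBP site TTGCNNAA and a GC box GGGCGG, which do not overlap each other in these windows. Capitals mark the motifs found, and each sequence is printed 5′ to 3′ on the strand of its gene.
Slamf9, plus strand, chr1:172475110-172475359: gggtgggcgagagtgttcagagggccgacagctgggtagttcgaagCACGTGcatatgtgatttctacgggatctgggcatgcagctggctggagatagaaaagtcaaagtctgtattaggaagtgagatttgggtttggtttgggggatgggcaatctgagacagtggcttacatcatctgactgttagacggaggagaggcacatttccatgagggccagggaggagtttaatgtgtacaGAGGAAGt
Ralgds, first start, plus strand, chr2:28512917-28513166: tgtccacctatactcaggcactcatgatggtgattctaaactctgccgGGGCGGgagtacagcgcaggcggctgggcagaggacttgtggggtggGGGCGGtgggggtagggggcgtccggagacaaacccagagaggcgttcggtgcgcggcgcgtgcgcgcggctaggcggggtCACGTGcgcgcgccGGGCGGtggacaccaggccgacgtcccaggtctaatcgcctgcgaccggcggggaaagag
Mfsd12, plus strand, chr10:81357241-81357490: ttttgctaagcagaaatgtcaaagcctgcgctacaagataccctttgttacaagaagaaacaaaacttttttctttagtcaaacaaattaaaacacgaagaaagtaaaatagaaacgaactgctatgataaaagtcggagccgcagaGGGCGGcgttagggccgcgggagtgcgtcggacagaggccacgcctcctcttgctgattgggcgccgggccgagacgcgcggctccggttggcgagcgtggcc
Dgkz, first start, minus strand, chr2:91963564-91963813: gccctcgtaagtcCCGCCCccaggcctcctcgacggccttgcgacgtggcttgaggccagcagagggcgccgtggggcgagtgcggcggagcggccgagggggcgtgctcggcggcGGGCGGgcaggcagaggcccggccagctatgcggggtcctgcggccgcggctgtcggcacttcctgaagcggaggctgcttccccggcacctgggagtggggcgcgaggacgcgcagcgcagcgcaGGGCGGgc

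Slamf9 and the first start of Ralgds were the only ones of the 9 promoters with the E-box, which 6.02% of 32851 mouse promoters of the same length hold. Slamf9 also had the PU.1 letters next to its start, the second start of Dgkz held them too, and so do 10.6% of all promoters. The GC box was in 7 of the 9 promoters, of 5 genes, against 32.7% of all promoters. That share takes no account of base content. The 9 promoters held from 50.8% G and C (Slamf9) to 77.6% (first start of Dgkz), and the median of all promoters was 52.4%. The AP-1 letters were in 0 of the 9 (6.75% of all), and the C/EBP letters were in 1, the second start of Ralgds (9.56% of all). A match is a description of the sequence and not evidence of binding.

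Ralgds (ENSMUSG00000026821.13, GRCm38 chromosome 2, 28513125 to 28553081) was among the least abundant of the 9. It was at 2.84 CPM in the lowest control, a median of 6.75 and 11.3 in the highest, where the library sizes behind CPM are adjusted by edgeR's TMM factors. Early disease ran from 6.02 over a median of 10.8 to 19.3 CPM, late disease from 11.7 over 20.0 to 43.9, and recovery from 5.50 over 8.19 to 20.6. Every late library lay above every control, though the lowest late library passed the highest control by little, and late and early disease overlapped. Late disease differed from control by 1.87 ± 0.21 (log2 fold change ± SE, edgeR) and from early disease by 1.20 ± 0.26. The recovery libraries lay within the control range except for 7, 9 and 5, at 20.6, 18.6 and 15.0 CPM.

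Dgkz (ENSMUSG00000040479.9, chromosome 2, 91932824 to 91975864) was far more abundant. Controls ran from 89.3 over a median of 153 to 228 CPM, early disease from 159 over 207 to 252, late disease from 213 over 266 to 355, and recovery from 178 over 215 to 243. The late libraries overlapped both the controls and early disease, and Late disease 3 and 6 were the highest at 355 and 343 CPM. The difference from control was 0.89 ± 0.11 in late disease, and early and late disease differed by 0.44 ± 0.13.

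Mical1 (ENSMUSG00000019823.15, chromosome 10, 41476314 to 41487032) had late values apart from those of control and early disease. Controls ran from 17.0 over a median of 25.4 to 37.2 CPM, early disease from 29.3 over 31.3 to 36.5, late disease from 42.9 over 52.1 to 79.2, and recovery from 27.5 over 38.9 to 47.1. The late libraries overlapped neither controls nor early disease. The differences of late disease from control and from early disease were 1.06 ± 0.12 and 0.73 ± 0.15. Its exons overlap those of Smpd2 on the opposite strand over 905 bases, 15% of its exon length, and the library kits do not mark strand, so reads there cannot be assigned to either gene with certainty.

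Myo5a (ENSMUSG00000034593.14, chromosome 9, 75071015 to 75223688) also had no overlap between late disease and either control or early disease. It was at 9.71 to 24.7 CPM in controls with a median of 16.5, and early disease covered the same range, from 10.5 over 18.3 to 25.2. Late disease ran from 32.0 over 37.0 to 52.1 CPM and recovery from 23.3 over 30.5 to 38.4. Against control its estimate was 0.09 ± 0.17 in early disease and 1.28 ± 0.16 in late disease.

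Mfsd12 (ENSMUSG00000034854.8, chromosome 10, 81357491 to 81366225) followed another order, with early disease between control and late disease. Controls ran from 22.6 over a median of 50.01 to 87.0 CPM, early disease from 65.0 over 89.2 to 109, late disease from 98.0 over 121 to 230, and recovery from 95.1 over 106 to 133. All late and all recovery libraries lay above all controls, while late and early disease overlapped. Late disease differed from control by 1.42 ± 0.17. Of its exon length, 29.7% (1179 bases) overlaps exons of 4930404N11Rik on the opposite strand.

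Grina (ENSMUSG00000022564.6, chromosome 15, 76246764 to 76249904) had the smallest late difference of the 9 and narrow groups. Controls ran from 142 over a median of 166 to 189 CPM, early disease from 142 over 156 to 168, late disease from 172 over 207 to 257, and recovery from 168 over 189 to 215. Late disease lay wholly above early disease but overlapped the controls, from which it differed by 0.32 ± 0.07. The 5 controls with codes other than 0810 were lower than the 9 with 0810 (mean 153 against 174 CPM), and Grina was the only one of the 9 genes with that direction.

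Slamf9 (ENSMUSG00000026548.4, chromosome 1, 172475358 to 172478575) was at 82.0 to 195 CPM in controls with a median of 119, and at 90.7 to 150.0 with a median of 113 in early disease. Late disease ran from 164 over 177 to 266 CPM and recovery from 152 over 196 to 304. Late disease and recovery each lay wholly above early disease, and both overlapped the controls. The late difference from control was 0.67 ± 0.13, and recovery and late disease differed by 0.01 ± 0.16 (no test). That last value was below 0 in 3 fits by limma on log2 TPM, in a model with replicate number as a block, in one holding the TPM share outside the deposited table and without Recovery 3, 7 and 9.

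Hcar2 (ENSMUSG00000045502.6, chromosome 5, 123863570 to 123865499) had, with Ralgds, the largest late difference of the 9, and a wide spread. Controls ran from 15.0 over a median of 27.7 to 68.1 CPM, early disease from 17.8 over 31.5 to 47.2, late disease from 52.9 over 96.6 to 304, and recovery from 51.6 over 74.7 to 164. Late disease and recovery each lay above every early library, and both overlapped the controls. Late disease differed from control by 1.88 ± 0.29, and by 1.40 without Late disease 6, the library at 304 CPM. That library also had the highest monocyte marker sum of late disease, 158 CPM, and the part of those cells in the Hcar2 value was not tested. Its closest relative Hcar1, the lactate receptor, was at 0.494 ± 0.872 CPM in controls (SD, n = 14).

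Uvssa (ENSMUSG00000037355.12, chromosome 5, 33378549 to 33419754) was the other low one. Controls ran from 4.53 over a median of 8.82 to 12.9 CPM, early disease from 3.56 over 7.79 to 12.1, late disease from 10.5 over 15.4 to 32.5, and recovery from 2.19 over 6.33 to 11.7. Late disease 1 and 3 stood highest at 32.5 and 26.1 CPM, the other 5 were at 10.5 to 16.3, and the late group overlapped the controls. Late disease differed from control by 1.07 ± 0.26, the largest SE after Hcar2.

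**Figure D1:**
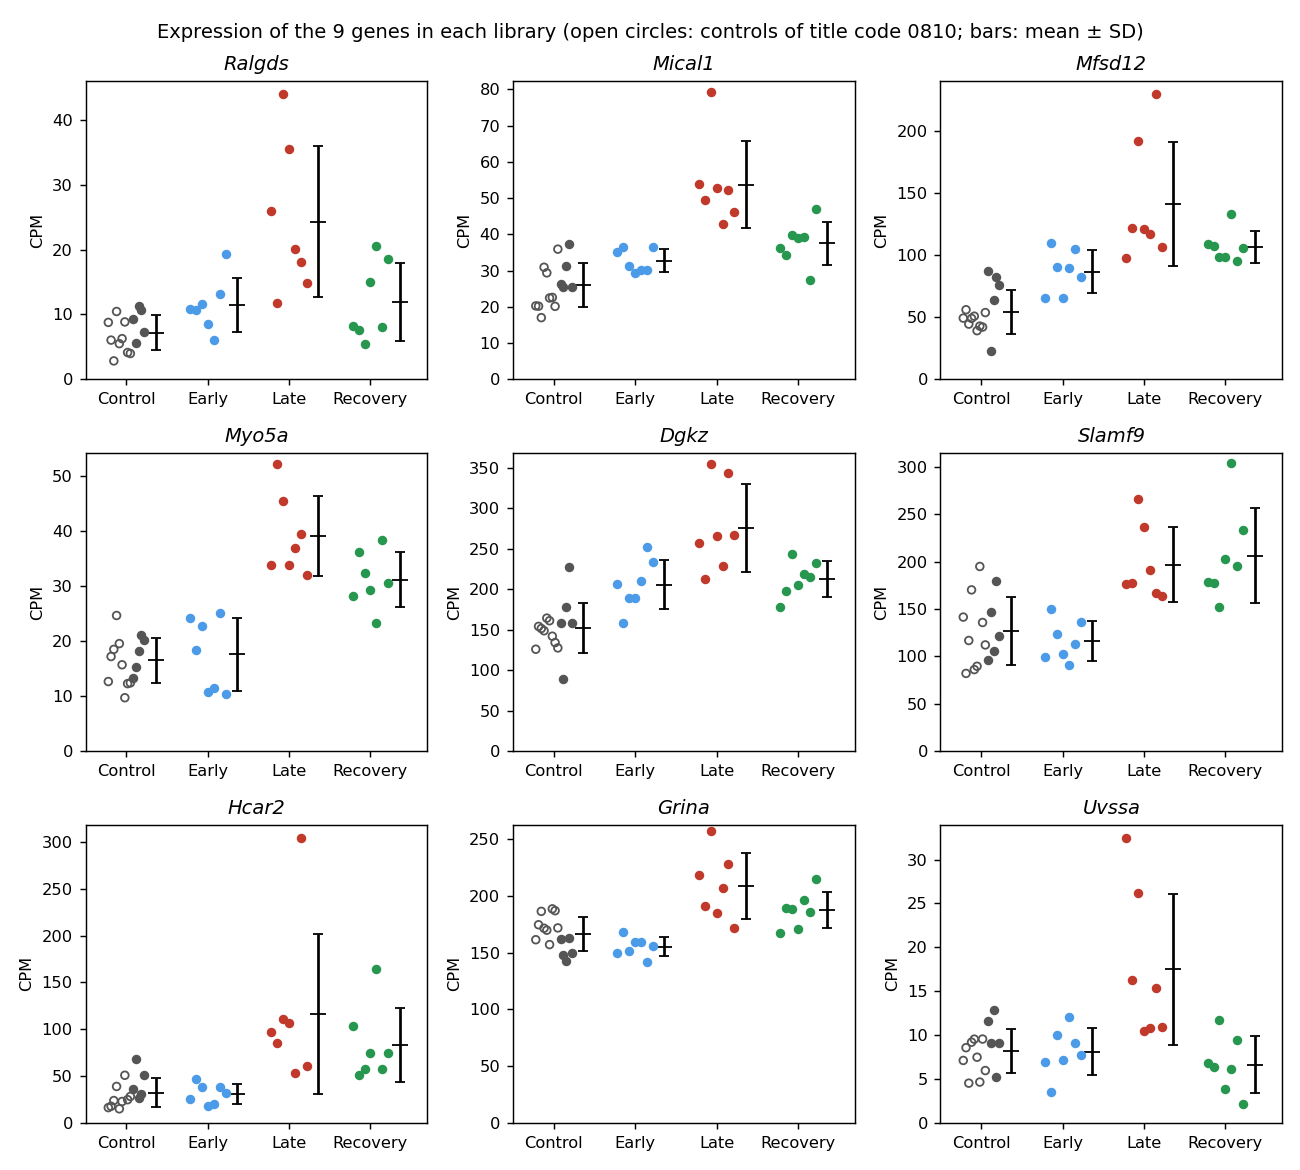
Expression of each gene as CPM (vertical axes, from 0) in every library of control, early disease, late disease and recovery, with bars at the mean ± SD and open circles for the 9 controls of title code 0810. Late disease stands highest in 8 of the 9 panels by its mean, and in Slamf9 recovery (206 CPM) and late disease (197 CPM) lie together.

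Levels can be compared between genes only per transcript length. On the TPM scale the controls were led by Grina (166 ± 16.5, SD, n = 14) and Slamf9 (162.5 ± 44.95), whose values overlapped, followed by Dgkz at 80.7 ± 26.8. Hcar2 (28 ± 12.6) and Mfsd12 (23.8 ± 10.3) came next, with overlapping ranges. Mical1 (13.5 ± 4.81) and Myo5a (8.91 ± 3.14) followed, and their ranges overlapped too. These ranges run across libraries, and genes were not compared within each library. Ralgds (3.60 ± 1.67) and Uvssa (3.04 ± 1.14) were lowest. In late disease Slamf9 led at 289 ± 52.8 TPM (n = 7), with Grina at 238 ± 37.1 and Dgkz at 182 ± 41.99. Hcar2 had a late level of 114 ± 75.0 TPM, and Uvssa was lowest at 7.69 ± 4.63.

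Across the 9 genes the median late difference from control was 1.07, against 0.02 over all 13501 genes, and from early disease it was 0.81 against 0.03. Both follow from how the genes were picked. By edgeR's quasi-likelihood test 9.01% of all genes were higher in late disease than in control and 0.600% higher than in early disease. Every late library was above every control for 4 of the 9 (Ralgds, Mical1, Mfsd12 and Myo5a) and above every early library for 5 (Mical1, Myo5a, Slamf9, Hcar2 and Grina), which was the case for 0.281% and 0.370% of all genes. Only Mical1 and Myo5a were in both sets.

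Within each title code the late mean was above the early mean for 9 of 9 genes. The same late and early libraries served to pick the genes, which by itself favours that direction, so the ratios are a description. In code 1102, with 3 late and 3 early libraries, the ratio of means ran from 1.35 for Grina to 3.98 for Hcar2. In code 1019, with 1 late and 2 early libraries, Mfsd12 had the smallest ratio, 1.12. In code 1130, where 3 late males face 2 early females, Ralgds had a ratio of 1.09 and Dgkz 1.15, while Hcar2 again had 3.98. Controls of other codes had higher means than those of code 0810 by 1.60 times for Hcar2 and 1.39 times for Ralgds and Mfsd12. With title code as a term the late difference from control was 1.36 for Hcar2 and 0.99 for Mfsd12, both smaller, and 0.49 for Grina, which was larger.

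The first comparison the choice did not use asked whether the genes already differed 2 weeks after doxycycline removal, although its controls and early libraries had served as references. None passed: 0 of 9 were called by edgeR at an adjusted p under 0.05, where 0.00741% of all genes were called (1 gene, lower). At an unadjusted p under 0.05 there were 4 of 9, all higher in early disease, and 1703 of all 13501 genes in either direction. Mfsd12 was at 86.6 ± 17.4 CPM (SD, n = 7) against 54.2 ± 17.7 (n = 14), a log2 difference of 0.67 ± 0.17 with adjusted p = 0.113 by edgeR. Dgkz differed by 0.45 ± 0.11, also with an adjusted p of 0.113, Ralgds by 0.67 ± 0.22 (adjusted p = 0.193) and Mical1 by 0.33 ± 0.12 (adjusted p = 0.263). For Myo5a, Slamf9, Hcar2, Grina and Uvssa the estimates lay between −0.14 and 0.09. DESeq2 called 2 of the 9, Mfsd12 and Dgkz (adjusted p = 0.0266 and 0.0287), where it called 168 of all genes (27 higher, 141 lower). On log2(TPM + 1) limma called Mfsd12, Dgkz, Ralgds and Mical1, where it called 1390 of all genes (1343 higher, 47 lower) and the median difference of all genes was 0.23, against −0.00237 on the TMM-scaled counts.

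The second comparison asked which genes still differed from control 1 week after doxycycline was restored. Recovery libraries had not served to pick the genes, but the controls had, and low controls by themselves favour a higher recovery. By edgeR, 6 of the 9 were higher in recovery and 0 lower, against 2.87% of all genes higher and 1.10% lower. The median log2 difference over the 9 was 0.68, and over all genes −0.01.

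Hcar2 had the largest difference, 83.4 ± 39.5 CPM (SD, n = 7) against 32.2 ± 15.3 (n = 14), or 1.36 ± 0.29 on the log2 scale (adjusted p = 0.00347). Mfsd12 rose to 107 ± 12.8 CPM, a difference of 0.99 ± 0.17 (adjusted p = 0.000314), and was the only one of the 9 with every recovery library above every control, which 0.430% of all genes were. Myo5a rose to 31.2 ± 5.07 CPM from 16.5 ± 4.17, or by 0.93 ± 0.16 (adjusted p = 0.00032). The receptor Slamf9 rose by 0.68 ± 0.13 (adjusted p = 0.00126), to 206 ± 49.95 CPM. Smaller rises were those of Mical1, 0.53 ± 0.12 (adjusted p = 0.0091), and Dgkz, 0.49 ± 0.11 (adjusted p = 0.00725).

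The other 3 did not pass. Ralgds was higher by 0.68 ± 0.22 with an adjusted p of 0.0689 by edgeR, and its recovery values spread from 5.50 to 20.6 CPM. The difference was 0.17 ± 0.07 for Grina (adjusted p = 0.181). Uvssa was at 6.65 ± 3.20 CPM in recovery against 8.19 ± 2.50 in control, a difference of −0.31 ± 0.27 (adjusted p = 0.601). Recovery also lay wholly above early disease for Slamf9 and Hcar2, 2 of the 9, against 1.13% of all genes.

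**Figure D2:**
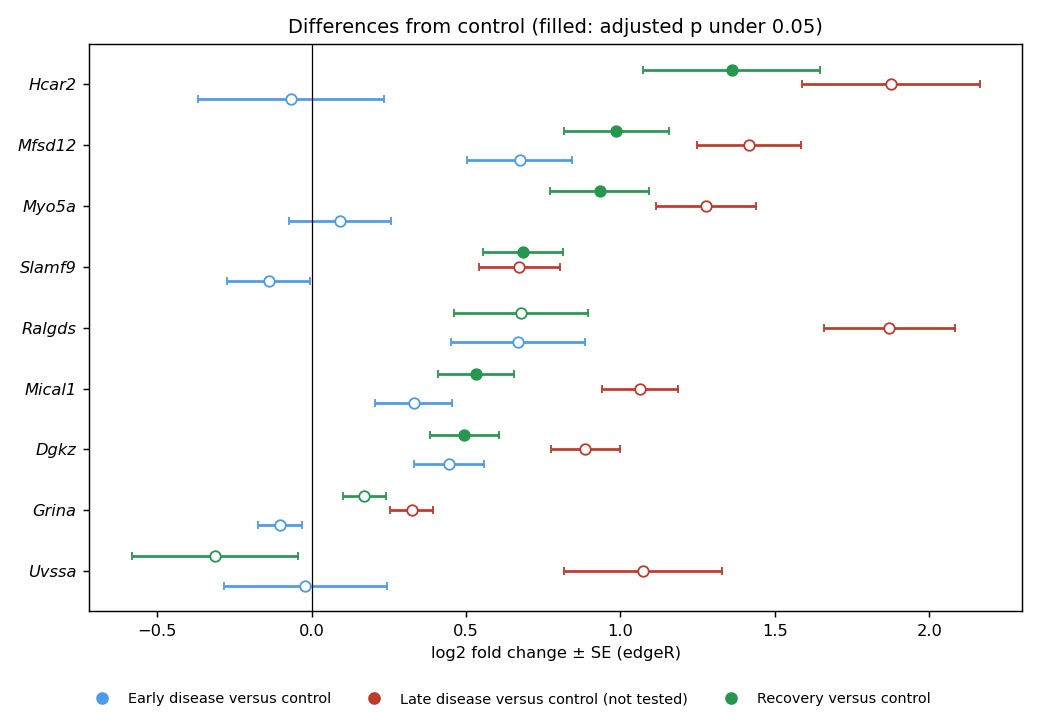
Log2 fold change against control (horizontal axis, edgeR, ± SE) for each gene in early disease, late disease and recovery, with filled points where the adjusted p was under 0.05 and no test for late disease. The 6 filled points are all recovery, from 0.49 for Dgkz to 1.36 for Hcar2, and Uvssa lies at −0.31 in recovery against 1.07 in late disease.

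Recovery values were set beside late values with no test, since picking genes for high late values by itself favours lower ones elsewhere. Recovery minus late disease was −1.39 ± 0.31 for Uvssa and −1.19 ± 0.26 for Ralgds on the log2 scale. For Mical1, Hcar2, Mfsd12, Dgkz and Myo5a it lay between −0.53 and −0.34, and for Grina it was −0.15 ± 0.08. Without Late disease 6 the Hcar2 value moved from −0.52 to −0.05. The nuclear repair gene and the Ral activator thus lay furthest below their late levels in recovery. Distance from control is another matter, and the recovery estimate of Ralgds against control was 0.68 ± 0.22. For the surface receptor Slamf9 recovery minus late disease was 0.01 ± 0.16.

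Markers of other cells were high in part of the recovery libraries, and their part in these calls was not tested beyond leaving libraries out. Neutrophil markers summed to 7635, 6910 and 5125 CPM in Recovery 3, 9 and 7, to 2470 in Recovery 2, and to 791, 924.5 and 1343 in Recovery 4, 8 and 5. Monocyte markers were highest in the same libraries, at 576 CPM in Recovery 3, 581 in Recovery 9 and 351 in Recovery 7, and all 7 recovery libraries, at 67.1 or more, lay above every control, at 26.3 or less. The highest recovery library of each of the 6 called genes is given as a description, with no share over all genes beside it. Mical1 was highest in Recovery 9 at 47.1 CPM, and Mfsd12, Slamf9 and Hcar2 were highest in Recovery 7 at 133, 304 and 164. The lowest recovery value of Hcar2 was in Recovery 3, at 51.6 CPM. Myo5a was highest in Recovery 8 at 38.4 CPM and Dgkz in Recovery 4 at 243, which are libraries with low neutrophil and monocyte sums.

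With Recovery 3, 7 and 9 left out together, a choice made after the values were seen, 4 recovery libraries remained and 2 of the 9 genes were called. Mfsd12 kept a difference of 0.92 (adjusted p = 0.0274) and Myo5a one of 0.99 (adjusted p = 0.00554). The estimates for the other 4 were 1.19 for Hcar2 (adjusted p = 0.101), 0.54 for Slamf9 (0.132), 0.49 for Dgkz (0.123) and 0.47 for Mical1 (0.214), while all genes called went from 537 to 99. The calls of Mical1 and Dgkz were also lost when the model held the TPM share outside the deposited table (adjusted p = 0.116 and 0.115). That of Dgkz, with a log2 difference of 0.49, was lost against the 8 WT controls alone (0.47, adjusted p = 0.0645) and the 3 WT controls of the same diet (0.57, adjusted p = 0.0508).

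**Figure D3:**
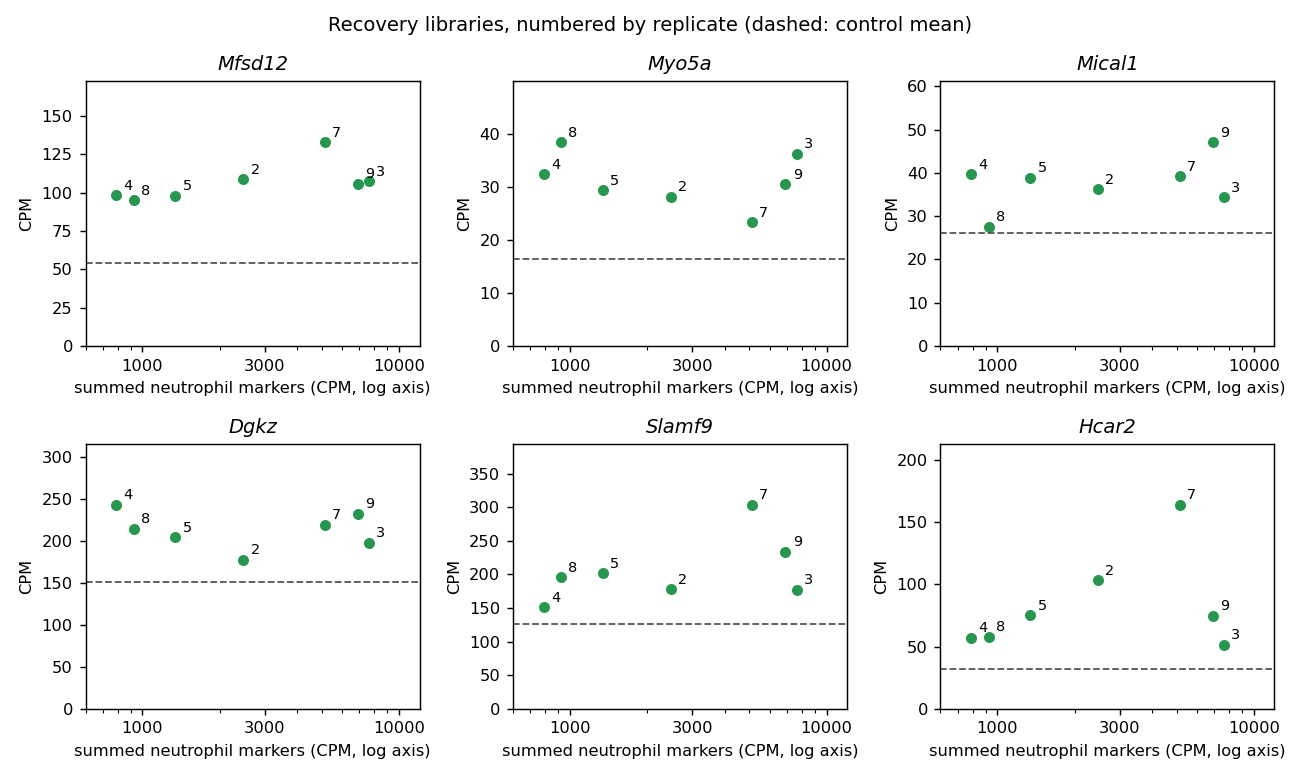
CPM of the 6 genes called in recovery (vertical axes, from 0) against the summed CPM of 10 neutrophil markers (horizontal log axis) in the 7 recovery libraries, numbered by replicate, with the control mean dashed. All 7 libraries lie above the dashed line in each of the 6 panels. The genes shown are those called higher in these libraries, which by itself favours that position.

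Genotype without transgene expression was compared within code 0810, with 6 rNLS8 mice on doxycycline against 3 WT mice, which also differed in diet. By edgeR 0 of the 9 were called, against 0.00772% of the 12958 genes tested. Of the 9 only Mical1 had an unadjusted p under 0.05, as did 508 of the 12958 genes. It was at 26.9 ± 6.13 CPM (SD, n = 6) against 19.2 ± 1.85 (n = 3), a log2 difference of 0.51 ± 0.23 with adjusted p = 1.00. DESeq2 called 0 of the 9 too. For Hcar2 the estimate was 0.64 ± 0.34 (adjusted p = 1.00), at 30.1 ± 12.8 against 19.3 ± 4.02 CPM.

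Females and males were compared in the same model of group and sex. No gene of the 9 passed by edgeR, against 0.0593% of all genes called. At an unadjusted p under 0.05 there were 2 of the 9, and 678 of all 13501 genes. Ralgds was higher in females by 0.76 ± 0.17 (adjusted p = 0.0711), and its female mean was above its male mean in each of the 4 groups: 8.59 against 5.33 CPM in controls, 13.7 against 8.43 in early disease, 30.4 against 19.7 in late disease and 15.5 against 7.11 in recovery. In late disease females and males also differ in title code, for each of the 9 genes. Slamf9 was higher in females by 0.34 ± 0.10 (adjusted p = 0.472). By the labels' sex this again held in all 4 groups, from 135 against 116 CPM in controls to 234 against 169 in recovery. The deposited design table gives Controls 7 and 8 the opposite sex. Control 7, labelled female, was the highest control for Slamf9 at 194.8 CPM, and Control 8, labelled male, was at 135.7. For Ralgds Control 7 was at 8.84 CPM and Control 8 at 4.13. With the sex of that table edgeR called 0 of the 9 too. DESeq2 called 1 of the 9, Ralgds (adjusted p = 0.00416), and limma on TPM called 0. The interaction of sex with recovery against control was called for 0 of the 9 by edgeR, DESeq2 and limma, and for 0% of all genes by edgeR. At an unadjusted p under 0.05 by edgeR there were 0 of the 9 and 706 of all genes.

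How far the genes varied together was read from the deviations of log2 CPM from the group means over the 35 libraries. This is a description with no test, since libraries share codes, depth and sex, and sex was not taken out of the deviations. Over the 36 pairs the median Pearson correlation was 0.154, with 9 pairs below 0 and 3 above 0.5. Those 3 were Mfsd12 with Dgkz (0.64), Ralgds with Slamf9 (0.57) and Ralgds with Mical1 (0.51). Ralgds and Slamf9 were also the 2 genes with an unadjusted p under 0.05 between the sexes by edgeR, both higher in females. The part of sex in their correlation was not tested. The lowest was Slamf9 with Uvssa at −0.354. The 9 genes therefore did not vary as one block from library to library.

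By the same measure the genes most like each were listed from all genes tested. Mfsd12 was closest to Gatad2a (0.832) and Mknk2 (0.814), and Dgkz to Foxj2 (0.804) and Brpf1 (0.771). Hcar2 followed Eef1b2 (0.734) and Gm2000 (0.732), and Slamf9 followed Cox6a2 (0.722) and Gpr180 (0.677). For Ralgds they were Sec14l2 and Tinagl1 (0.706 each), for Uvssa Fnbp4 (0.698) and Fbxl12 (0.697), and for Grina Fam217b (0.66) and Kctd6 (0.649). Mical1 was closest to Lmna (0.648) and H2-Q5 (0.633), and Myo5a to Slc39a2 (0.642) and Il1r1 (0.596).

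The families and pathways of the 9 genes were examined through 9 lists of relatives, 120 genes without the 9 themselves, of which 97 were tested. In late disease against control 16 were higher and 6 lower by edgeR, 22.7% against 15.4% of all genes called. In recovery 2 were higher and 3 lower, 5.15% against 3.98%.

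Relatives of the organelle motor had the most calls. Of 13 tested myosins and myosin Va partners, 5 rose in late disease and 0 fell, with a median of 0.35. Myo1e, a membrane-binding class I myosin, rose from 20.4 ± 8.18 CPM (SD, n = 14) to 47.0 ± 12.7 (n = 7), by 1.21 ± 0.24 (adjusted p = 0.0011). It was also the only one of the list called in recovery, at 42.1 ± 10.2 CPM (1.05 ± 0.24, adjusted p = 0.00845). Myo9b, a single-headed myosin, rose by 1.05 ± 0.18 (adjusted p = 0.000282) and the phagosome motor Myo7a by 0.75 ± 0.22 (adjusted p = 0.0188), the latter with adjusted p = 0.0603 without Late disease 6. Of 13 tested genes for diacylglycerol kinases and diacylglycerol-binding signalling proteins, 4 rose and 0 fell. The kinases Dgkq and Dgkd rose by 0.65 ± 0.23 and 0.52 ± 0.16, with adjusted p of 0.0475 and 0.0252, and the protein kinase C gene Prkcd by 0.49 ± 0.10 (adjusted p = 0.00105). Dgkq lost its call in 23 of the 35 fits that left out 1 library, with adjusted p up to 0.172, and Dgkd in 1, without Late disease 3 (adjusted p = 0.0602). In recovery Dgkh and Prkca fell, by 0.89 ± 0.25 and 0.60 ± 0.14 (adjusted p = 0.0333 and 0.0108), and Dgkh lost its call in 6 fits without 1 library, with adjusted p up to 0.103.

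The partners of Ralgds moved both ways. Of 15 tested genes of the Ral pathway 1 rose and 2 fell. Rgl2, which like Ralgds activates Ral, rose by 1.00 ± 0.27 (adjusted p = 0.0093), but Late disease 1 alone was at 269.5 CPM, the next at 80.2, and without it the value was 0.45 (adjusted p = 0.126). The GTPase Rala fell by 0.39 ± 0.09 (adjusted p = 0.00304), from 61.7 ± 8.00 to 47.0 ± 8.00 CPM. The exocyst subunit Exoc8 fell by 0.48 ± 0.14 (adjusted p = 0.0186), with adjusted p of up to 0.0558 when Late disease 3 or 6 was left out. In recovery Ralgps2, another activator of Ral, fell by 0.51 ± 0.14 (adjusted p = 0.0344, up to 0.104 without 1 library).

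Among the 11 lysosomal transporters tested, Mfsd1 rose by 0.49 ± 0.11 (adjusted p = 0.00257), whereas Slc15a4, a carrier of histidine and peptides, fell by 0.65 ± 0.11 (adjusted p = 0.000163) and the amino acid sensor Slc38a9 by 0.39 ± 0.11 (adjusted p = 0.0124). Slc38a9 was at adjusted p = 0.0503 without Late disease 3. In the MICAL list, where the Msrb enzymes reverse the oxidation of actin, Msrb2 fell by 0.46 ± 0.12 (adjusted p = 0.0105). Msrb1 was called higher, at 1.45 ± 0.37 (adjusted p = 0.00739), on a single library: Late disease 6 was at 49.4 CPM and the next at 6.34, and without it the value was 0.29 (adjusted p = 0.414).

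Of 9 tested SLAM family genes and adaptors 2 rose, Cd244a and Ly9. Cd244a likewise rested on Late disease 6, at 170.5 CPM against 10.4 for the next, and its 2.34 ± 0.59 became 0.61 without that library (adjusted p = 0.456). Ly9 rose by 0.58 ± 0.20 (adjusted p = 0.0409), a call lost in 13 of the 35 fits without 1 library, with adjusted p up to 0.108. Slamf8, the family member nearest in kind to Slamf9, did not pass, at 76.3 ± 54.7 CPM in late disease against 81.8 ± 48.1 in control. The metabolite receptors (0 of 3 tested) and the TMBIM family (0 of 4) had no late call by edgeR, and Gpr35 rose in recovery by 0.60 ± 0.17 (adjusted p = 0.0369, up to 0.151 without 1 library). In transcription-coupled repair, Ercc5 and Usp7, the deubiquitinase that Uvssa brings to stalled polymerase, rose by 0.58 ± 0.18 and 0.44 ± 0.13, and Gtf2h3 fell by 0.77 ± 0.25, among 21 tested. Usp7 was at adjusted p = 0.0814 without Late disease 6, Ercc5 at up to 0.0715 and Gtf2h3 at up to 0.0942 without 1 library.

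The number of relatives called in late disease changed with the model and the controls. Against the 8 WT controls 14 were called and against the 6 rNLS8 controls 26. With title code as a term 0 of the relatives were called, and 4 of all genes. Against the 5 controls of shared codes 3 were called, among them Rala (−0.47, adjusted p = 0.0307) and Mfsd1 (0.64, adjusted p = 0.0221), and 191 of all genes. The direction of each of the 22 was the same in both of these fits.

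**Figure D4:**
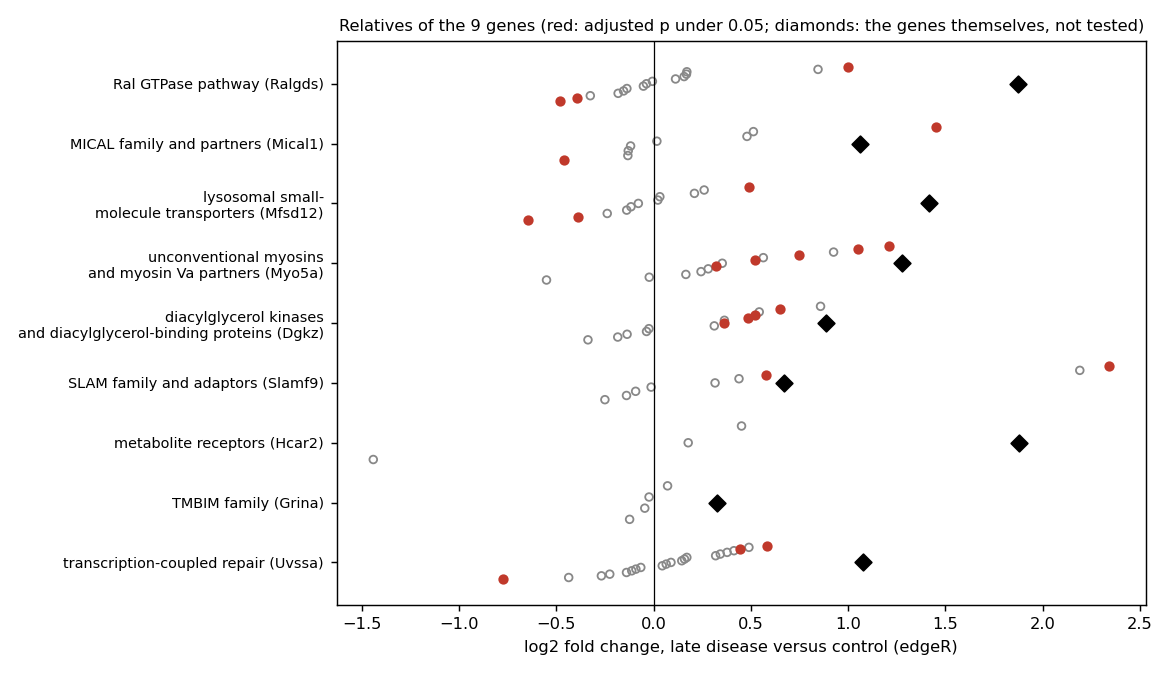
Log2 fold change in late disease against control (horizontal axis, edgeR) of the relatives of each of the 9 genes, one row a list, red where the adjusted p was under 0.05, with a black diamond for the gene itself, which was not tested. Of the 97 tested relatives 22 are red, 5 of them in the myosin row, and Cd244a at 2.34 and Msrb1 at 1.45 each rest on 1 library.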

How the data were processed

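Bulk RNA of CD11b/CD45-sorted spinal cord microglia was analysed in 35 libraries. The authors deposited expected counts and TPM values per gene; RSEM, DESeq2 and the build mm10 are named per the submitters' processing notes, with no versions. Per the labels' protocols, libraries were made with SMART-Seq Ultra Low-input and NexteraXT kits, which carry no strand. Of the expected counts 84.67% were whole (tolerance 1e-06), and all were rounded. Totals of 13.9 M to 20.4 M (M, 1e6) set the counting precision, and the lowest count of any of the 9 genes in a control was 52.

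Counts were tested with edgeR 4.0.16 (R 4.3.3; quasi-likelihood F test, TMM, filter on low counts by group, model of group and sex over 35 libraries, Benjamini-Hochberg over 13501 genes, called under 0.05). Symbols were matched for 45143 of 45706 genes, positions come from GENCODE M21 on GRCm38 and promoters from RefSeq GRCm38.p6. The sex in the labels disagreed with the deposited design table in 2 control libraries, and the labels' sex was used. The test was checked on simulated counts for recovery against control over 13501 genes, where it found 80% of genes with a 2-fold rise and 100% of those with a 4-fold rise. The simulated counts had the same dispersion for every gene and no effect of code, sex or cell content, so these shares need not hold for the data. The 9 genes, the lists of relatives and markers and the comparisons were chosen with earlier results of these data known. The named genes are the 9, at most 3 called relatives a list by size of the late difference, the 2 genes most like each of the 9, and markers. Relatives called in recovery, Slamf8 and Hcar1 were named in addition, after their values were seen. Of 120 relatives 118 were matched. The 154 pairs of replicate libraries differed by more than counting noise (chi-square per degree of freedom 19.6 to 205), so each counted once. Alternatives were DESeq2 1.42.0, limma 3.58.1 on log2(TPM + 1) and log2(TPM + 0.1), other size factors, filters, sex terms and controls, title code and TPM share as terms, a replicate block, and leaving out each library.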

Additional observations from a re-analysis of the deposited data

Results flagged for a closer look

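In 45 groups of 4 to 7 libraries, 3 held a library that stood far from the others by Dixon's test, and chance gives about 1 in 20. Mical1 was at 79.2 CPM in Late disease 3, where the next late library was at 53.8. Hcar2 was at 304 CPM in Late disease 6, with the next at 111. Mfsd12 was at 133 CPM in Recovery 7, with the next recovery library at 109. No explanation of these 3 values was tested. Late disease 3 was also the highest late library for Ralgds, Dgkz, Slamf9 and Grina, and Late disease 6 the highest for Mfsd12.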

How the results depend on the processing

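Over the 9 genes and all comparisons, 713 of 792 values under other settings and 2236 of 2286 values with 1 library left out kept their sign, and with it their side of the threshold or, where untested, a value within 1 SD between libraries. The sign changed in 37 and 40 values, of which 0 passed the test with either sign. For the 9 genes in early disease, against 0 called, DESeq2 called 2, limma 4 in each of its 3 versions (log2(TPM + 1), log2(TPM + 0.1) and no filter), the fit against the 6 rNLS8 controls 2 and the replicate block 3. Over all genes, against 1 called in early disease, these fits called 168, then 1390, 1354 and 222, then 735 and 613. On the 2 TPM scales the median difference of all genes was 0.23 and 0.27 in early disease and 0.19 and 0.23 in late disease, against −0.00237 and 0.0189 on the TMM-scaled counts. In females against males DESeq2 and the TPM share as a covariate each called 1, Ralgds. In recovery, against 6 called, the number was 2 without Recovery 3, 7 and 9, and 4 to 7 under the other settings. The relatives called in recovery, 5 by edgeR, were 8 by DESeq2 and by limma on log2(TPM + 1) and log2(TPM + 0.1), 9 with no filter and against the 6 rNLS8 controls, 8 with the replicate block, 2 against the 8 WT controls and against the 3 WT controls of the same diet, 1 with the TPM share as a covariate and 0 without Recovery 3, 7 and 9. Those called in late disease, 22, of which 16 were higher and 6 lower, were 35 and 34 by limma on log2(TPM + 1) and log2(TPM + 0.1), with 1 lower in each, 14 against the 8 WT controls, 3 against the 5 controls of shared codes, 1 with the TPM share as a covariate and 0 with title code as a term. The cause of these moves was not tested. The fits with fewer controls or recovery libraries also held fewer libraries.

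With 1 library left out in turn, the 9 genes had 6 to 7 calls in recovery, 0 to 2 in early disease (2 without Control 13) and 0 to 1 between the sexes. Their median difference ran from 0.95 to 1.17 in late disease against control, from 0.76 to 0.86 against early disease and from −0.48 to −0.32 in recovery against late disease. Relatives called ran from 14 (without Late disease 3) to 25 in late disease and from 2 (without Recovery 7) to 9 (without Control 11) in recovery. Over all genes, recovery calls ran from 329 to 750.

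Replicate numbers did not pair the libraries: over 37 pairs with the same number the correlation of deviations had a median of 0.00364, 2 pairs exceeded 0.1, and 1 of 35 libraries was closest to one of its own number. The replicate block called 7 of the 9 in recovery, adding Ralgds (0.96, adjusted p = 0.025), and 912 of all genes against 537.

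The tested estimates that changed sign were these, on the log2 scale. In early disease, on log2(TPM + 1), log2(TPM + 0.1) and with no filter, Slamf9 (−0.14 by edgeR) was at 0.149, 0.15 and 0.149, Hcar2 (−0.07) at 0.246, 0.256 and 0.246, Grina (−0.10) at 0.146, 0.147 and 0.146, and Uvssa (−0.02) at 0.0093, 0.0031 and 0.0093. Grina was also at 0.019 with the TPM share as a covariate, 0.063 with title code as a term and 0.031 against the 5 controls of shared codes. With the TPM share Myo5a (0.09) was at −0.15, and against the 6 rNLS8 controls Uvssa was at 0.069. The replicate block gave 0.25 for Hcar2 and 0.021 for Uvssa in early disease, and −0.23 for Ralgds, 0.41 for Myo5a and −0.068 for Grina in the sex interaction, where Grina was at −0.080 under each limma version. Between females and males Grina was at −0.0018 under each limma version and −0.0092 with the TPM share, and Hcar2 at −0.017 with sex from the design table. Between rNLS8 and WT controls Grina was at 0.000201 with RLE size factors. With 1 library left out, early estimates ran from −0.047 to 0.20 for Myo5a, −0.18 to 0.062 for Hcar2 and −0.13 to 0.11 for Uvssa. Grina between the sexes ran from −0.022 to 0.019, and the sex interaction of Mical1 from −0.21 to 0.055. Between rNLS8 and WT controls the ranges were −0.22 to 0.27 for Myo5a, −0.067 to 0.11 for Dgkz, −0.054 to 0.068 for Grina and −0.011 to 0.46 for Uvssa. The untested Slamf9 difference between recovery and late disease ran from −0.068 to 0.066, and from −0.12 to 0.066 under the other settings.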
